A study of Mus musculus with 12 samples.

Results

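Frontal bone of newborn wild type mice was compared between BALB/c and C57BL/6, 2 inbred strains. The samples were chosen by the strain and genotype in their labels: BALB/c wild type replicates 13, 14 and 15 and C57BL/6 wild type replicates 1, 2 and 3, which are 6 of the 12 samples of the series. The other 6 samples came from the same strains and carried 1 FGFR2-C342Y allele, which models Crouzon syndrome, a disorder of early closure of skull sutures. All were taken at postnatal day 3, and the tissue was frontal bone that kept the nasal bone and the frontonasal and coronal sutures, digested with collagenase and trypsin before RNA was extracted for mRNA libraries. The labels give no sex and do not say whether a sample was 1 animal or a pool, or that replicates were separate animals, so p-values measure the spread between these samples, which may be technical. In the sample descriptions all C57BL/6 samples share one flow cell identifier and all BALB/c samples another, so strain and flow cell cannot be told apart in any result given here.

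The frontal bone forms without a cartilage template: mesenchymal cells turn into osteoblasts, which secrete type I collagen and mineralise it, some of them become osteocytes inside the matrix, and osteoclasts of blood origin resorb it. The sutures hold mesenchyme that stays unmineralised while the skull grows, and fibroblast growth factor (FGF), Wnt, bone morphogenetic protein (BMP), TGF-beta and hedgehog signals act there. BALB/c mice are albino because of a change in the tyrosinase gene, and the strains carry different haplotypes of the H2 (histocompatibility) region. The reads were aligned to mm10, per the submitters' processing notes, a genome assembled from C57BL/6, so BALB/c reads that differ from it can be lost; the part of this in the results was not tested.

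Values are CPM, which are counts per 1000000 counts of the library size after scaling for composition, in the order of the replicate numbers, positions are those of the deposited mm10 table, and differences are log2 of BALB/c over C57BL/6. Of 23358 genes in the table, 16190 were tested, and 7847 of these (48.5%) differed between the wild type strains at an adjusted p under 0.05 (edgeR, Benjamini-Hochberg). In BALB/c 3698 genes (22.8%) were higher and 4149 (25.6%) were lower. The median difference of all genes was -0.0013. Differences of at least 1 on the log2 scale numbered 483 higher and 1826 lower. Scaling by total counts moved the median to -0.1163 and gave 2221 higher and 4909 lower genes. Offsets for GC content and gene length moved it to 0.1185 and gave 4938 higher and 2737 lower genes, and the same offsets centred in each library gave 3455 and 3355. In mutants 5968 genes (36.9%) differed between the strains, 2914 (18%) higher and 3054 (18.9%) lower in BALB/c. Of the genes higher by at least 1 in wild type BALB/c, 373 (77.2%) were also higher in mutants. Of those lower by at least 1, 667 (36.5%) were also lower in mutants.

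Total gene counts ran from 32319568 to 36869392 in the C57BL/6 and from 27181658 to 34304158 in the BALB/c wild type libraries. Bone markers were present: Runx2 and Sp7, transcription factors that osteoblasts need, lay between 229 and 320.1 CPM and between 203 and 286 CPM in the 6 libraries. The summed level of the 30 osteoblast and bone matrix genes was 128787 CPM in C57BL/6 replicate 1 and ran from 213204 to 237893 CPM in the other 5, so this library stood apart. Y-linked genes summed to 153, 156 and 162 CPM in C57BL/6 and to 0.15, 0.185 and 162 CPM in BALB/c, and Xist, which silences an X chromosome in females, ran from 2.52 to 462 CPM in BALB/c and from 0.727 to 0.964 CPM in C57BL/6. Sex-linked transcripts therefore differed in balance between the groups. Transcripts of nasal lining moved with strain as well: 40 epithelial genes summed to 570.4, 608 and 309 CPM in C57BL/6 and to 32.2, 33 and 35.4 CPM in BALB/c. C57BL/6 mutant replicates 4, 5 and 6 held 181, 27.1 and 28.3 CPM of them. In bulk samples fewer cells of a type and less RNA per cell cannot be told apart.

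Some genes split the strains in all 12 samples. 1500 genes (9.26% of those tested) were higher and 1650 (10.2%) lower in BALB/c in both genotypes with no overlap between the 6 samples of each strain. Gbp1 (chromosome 3, 142594847 to 142619176), a guanylate-binding protein that interferon induces for defence against microbes inside cells, is one of them. It had 0 counts in all 6 C57BL/6 samples and 2.93, 2.66 and 3.28 CPM in the BALB/c wild type samples, which is at least 32.7-fold higher than a floor of 3 counts per library (adjusted p 2.53e-05); every deposited count is even, so 2 is the smallest count above 0. The mutant BALB/c samples held 4.2, 2.07 and 3.2 CPM. To show what lies before its start, the 250 bases upstream are given from the RefSeq table of GRCm38.p6 (chr3:142594597-142594846, plus strand, listed there as Gbp2b), with the match to the interferon-type motif (GAAA, any 2 bases, GAAA), on the reverse strand, in capitals. The bases before Spp1 and Tyr, described further on, follow, with AACCACA, the letters Runx2 binds, and CATGTG, an E-box of the kind bound by the pigment cell factor Mitf, in capitals.

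Gbp1 upstream: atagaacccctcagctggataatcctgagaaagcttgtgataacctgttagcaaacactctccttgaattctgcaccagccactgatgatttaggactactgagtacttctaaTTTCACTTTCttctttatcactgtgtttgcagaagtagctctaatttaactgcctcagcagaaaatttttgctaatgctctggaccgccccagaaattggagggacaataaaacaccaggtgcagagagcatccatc
Spp1 upstream, chr5:104434861-104435110, plus strand: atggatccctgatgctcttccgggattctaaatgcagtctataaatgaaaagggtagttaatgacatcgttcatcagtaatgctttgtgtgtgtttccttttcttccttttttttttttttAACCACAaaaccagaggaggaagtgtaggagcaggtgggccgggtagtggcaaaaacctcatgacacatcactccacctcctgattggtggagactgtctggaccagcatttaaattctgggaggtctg
Tyr upstream, chr7:87493513-87493762, minus strand: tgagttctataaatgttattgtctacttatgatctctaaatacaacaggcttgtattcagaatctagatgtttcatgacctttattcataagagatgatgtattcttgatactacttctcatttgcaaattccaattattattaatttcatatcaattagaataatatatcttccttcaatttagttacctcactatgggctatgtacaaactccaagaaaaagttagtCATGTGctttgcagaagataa
mmu-miR-703, chr5:98475616-98475636, minus strand, seed (bases 2 to 8) in capitals: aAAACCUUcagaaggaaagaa

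Counted on both strands, 2.98% of 32851 RefSeq promoters held the interferon-type motif in such a window, 4.4% held AACCACA and 12.3% held CATGTG. Of the 19 guanylate-binding proteins and immunity-related GTPases tested, 11 had a promoter in that table, and all 11 held it, 5 of them higher in BALB/c and 6 not. A match is a description of these letters and not a bound site.

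Other genes were close to absent in one strain. Dmrtb1, a germ cell transcription factor, was at 0.052, 0 and 0 CPM in C57BL/6 and 2.18, 3.33 and 3.16 CPM in BALB/c (log2 7.07, SE 0.63, adjusted p 2.69e-05). Masp2, a protease that starts the lectin pathway of complement, was at 0.156, 0 and 0.107 CPM in C57BL/6 and 1.8, 2.22 and 3.1 CPM in BALB/c (log2 4.67, SE 0.58, adjusted p 8.31e-05). Sstr1, a somatostatin receptor, was at 0.364, 0.301 and 0.429 CPM in C57BL/6 and 4.28, 5.87 and 4.8 CPM in BALB/c (log2 3.76, SE 0.23, adjusted p 7.18e-07), and in mutants the difference was 6.03. Mir703 (chromosome 5, 98475556 to 98475664), whose mature form is printed above, was at 0.26, 0 and 0.0536 CPM in C57BL/6 and 3, 3.4 and 6.5 CPM in BALB/c (log2 5.27, SE 0.78, adjusted p 0.000275); mRNA libraries do not measure the mature miRNA. Serpina3h, a protease inhibitor of a multigene cluster, differed (log2 4.12, SE 0.71, adjusted p 0.000702) and shared 21.9% of its 50-base words with other loci, so its counts are uncertain. Without C57BL/6 replicate 1, which held most of the few counts in that strain, the fitted differences of Dmrtb1, Masp2, Mir703 and Serpina3h were 9.74, 5.33, 7.10 and 5.23. Erdr1, listed on chromosome Y in the table, differed (log2 3.47, SE 0.40, adjusted p 5.26e-05); it was at 13.1, 18.4 and 9.06 CPM in C57BL/6 and 119, 167 and 163 CPM in BALB/c, and BALB/c replicates 13 and 14 held almost no counts of the Y-linked list.

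In the other direction, some genes present in all 6 C57BL/6 samples were at or near 0 in BALB/c wild type; these were chosen after their values were seen, since the 10 genes that the naming rule took for this direction, given with the nasal lining, were low in C57BL/6 mutants 5 and 6 too. Mir5109 was at 39.3, 32.6 and 38.8 CPM in C57BL/6 wild type and 37.7, 43 and 44.8 CPM in C57BL/6 mutants, and at 0, 0.0618 and 0 CPM in BALB/c wild type (adjusted p 1.88e-09). Olfr1033, an olfactory receptor gene, was at 5.98, 5.3 and 4.4 CPM in C57BL/6 and 0, 0 and 0 CPM in BALB/c (at least 46.4-fold lower, adjusted p 8.44e-06), and it was at 5.2, 4.17 and 5.33 CPM in the C57BL/6 mutants. Col4a6, a basement membrane collagen chain, was at 1.4, 6.02 and 2.41 CPM in C57BL/6 and at 0 in the 3 BALB/c libraries (at least 29.1-fold lower, adjusted p 0.00017), and the bound was 16.9-fold without C57BL/6 replicate 2, the highest. In the C57BL/6 mutants Col4a6 was at 3.03, 3.4 and 1.08 CPM. Isoc2b was at 5.09, 5.36 and 5.04 CPM in C57BL/6 and 0.3, 0.124 and 0.351 CPM in BALB/c. Pgbd5, a gene derived from a transposase, was at 8, 6.38 and 5.25 CPM in C57BL/6 and 0.225, 0.0618 and 0.176 CPM in BALB/c. In the C57BL/6 mutants Isoc2b was at 4.74, 5.63 and 6.14 CPM and Pgbd5 at 5.65, 4.46 and 5.44 CPM. Among genes higher in BALB/c, Scand1, a small zinc finger partner, was at 5.56, 5.18 and 5.09 CPM in C57BL/6 and 48.4, 50.4 and 54.2 CPM in BALB/c. Grm4, a glutamate receptor, was at 0.831, 1.26 and 1.61 CPM in C57BL/6 and 10.3, 10.7 and 12.8 CPM in BALB/c. Rbp4, the plasma carrier of retinol, was at 4, 3.73 and 3.59 CPM in C57BL/6 and 23.4, 23.7 and 24 CPM in BALB/c. Cxcl14, a chemokine, was at 5.04, 11.6 and 15.8 CPM in C57BL/6 and 44.3, 49.7 and 64.2 CPM in BALB/c. These 4 genes shared 0% of their words with other loci, and their groups did not overlap.

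**Figure D1:**
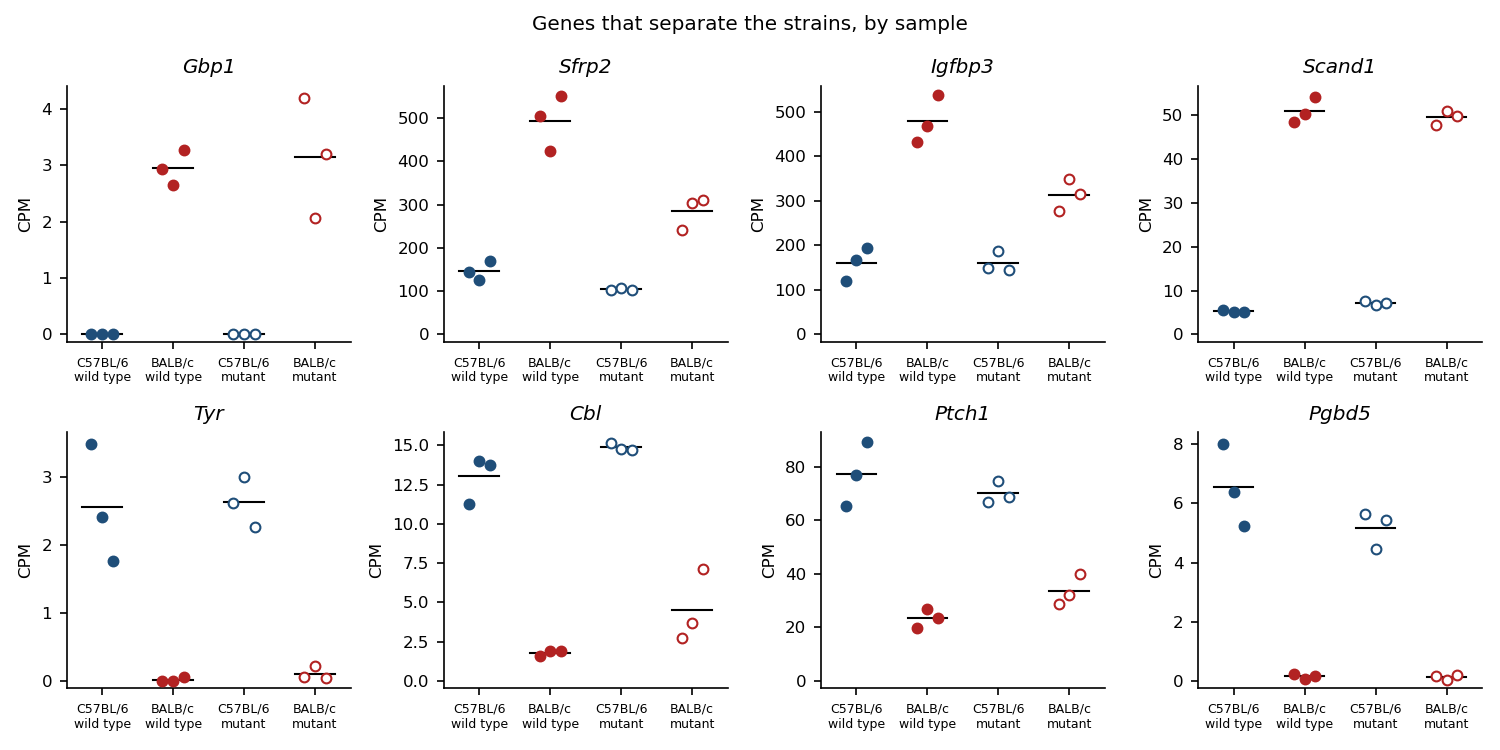
CPM of 8 genes in each of the 12 samples, linear axes from 0, one panel per gene; filled points are wild type and open points mutant samples, and bars are group means of 3 samples. In each panel the 6 samples of one strain lie above the 6 of the other, and Gbp1 is at 0 in every C57BL/6 sample.

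Genes of the H2 region and of innate defence went in both directions. Of 21 class I genes tested, 9 were higher and 4 lower in BALB/c (median 0.18), 42.9% and 19% against 22.8% and 25.6% of all genes. With centred GC and length offsets 6 were higher and 5 lower (median 0.02), and without BALB/c replicate 14 6 were higher. Of 10 class II genes 3 were higher and 2 lower (30% higher and 20% lower), near the shares over all genes. H2-Ea-ps (chromosome 17, 34342212 to 34344645), the class II alpha chain locus that C57BL/6 mice do not express, had 0 counts in C57BL/6 and 1.95, 2.35 and 1.87 CPM in BALB/c, at least 22.8-fold higher (adjusted p 3e-05). H2-DMa and H2-DMb1, whose products load peptides onto class II molecules, went opposite ways: H2-DMa was at 2.91, 2.65 and 2.57 CPM in C57BL/6 and 7.51, 6.3 and 6.97 CPM in BALB/c (log2 1.35, SE 0.15, adjusted p 3.58e-05). H2-DMb1 was at 3.07, 3.55 and 3.27 CPM in C57BL/6 and 0.526, 0.371 and 0.293 CPM in BALB/c (log2 -3.06, SE 0.33, adjusted p 3.13e-05). H2-DMb1 shared 22.6% of its words with another locus. H2-Aa, a class II antigen-presenting chain, was lower in BALB/c (log2 -1.07, SE 0.22, adjusted p 0.00218). Among class I genes H2-Q2 was higher by 3.58 (adjusted p 0.000139), H2-T24 by 1.51 (0.0001) and H2-T23 by 0.81 (0.000544). H2-Q2 and H2-T23 shared 16.1% and 14.5% of their words with other loci, so their values are uncertain. Nlrc5, the activator of class I genes, was lower (log2 -1.34, adjusted p 0.0026).

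The 19 guanylate-binding proteins and immunity-related GTPases held 9 members higher and 0 lower in BALB/c (47.4% higher and 0% lower, against 22.8% and 25.6% of all genes, median 0.34); 10 did not pass. Gbp4 was at 1.77, 2.23 and 2.73 CPM in C57BL/6 and 5.56, 5.99 and 5.09 CPM in BALB/c (log2 1.31, SE 0.23, adjusted p 0.000924). Gbp6 was at 1.2, 0.843 and 1.55 CPM in C57BL/6 and 3, 2.35 and 3.92 CPM in BALB/c (log2 1.36, SE 0.34, adjusted p 0.00579). The wider list of 52 interferon-inducible genes was split, 7 higher and 7 lower with a median of 0.05. Higher members numbered 11 with GC and length offsets. Lower members numbered 4 with GC and length offsets, centred or not. Oas3 and Cmpk2, which act against viral RNA and DNA, differed by -1.12 and -0.98 (adjusted p 0.00189 and 0.00144). The members higher and the members lower were each a smaller share of that list (13.5% higher and 13.5% lower) than over all genes. In the Ifi200 and Trim clusters, gene families that differ in copy number between strains, 6 of 17 were higher and 6 lower (35.3% higher and 35.3% lower). Ifi202b, a DNA sensor, was at 0.623, 1.32 and 0.322 CPM in C57BL/6 and 6.24, 5.5 and 4.57 CPM in BALB/c (log2 2.85, SE 0.43, adjusted p 0.000313, or 3.51 without C57BL/6 replicate 2). Trim12a, of the retrovirus-restricting Trim5 family and with 10.5% of shared words, was at 6.81, 5.42 and 5.15 CPM in C57BL/6 and 0.0751, 0.124 and 0 CPM in BALB/c (log2 -6.41, SE 0.57, adjusted p 1.03e-05), a fitted value that ran from -7.30 without BALB/c replicate 14 to -5.79 without replicate 15. Lists of known strain-variable genes were written with such differences in view and are not independent evidence of direction.

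Tyr (chromosome 7, 87427405 to 87493411), the rate-limiting enzyme of melanin, was at 3.48, 2.41 and 1.77 CPM in C57BL/6 and 0, 0 and 0.0586 CPM in BALB/c wild type (log2 -6.70, SE 0.73, adjusted p 3.74e-05), or -9.58 without BALB/c replicate 15, the one with a count. In mutants the same split was 2.62, 3.01 and 2.26 against 0.06, 0.215 and 0.0492 CPM. Of the 9 pigment genes tested, 3 were lower and 0 higher (0% higher and 33.3% lower). Marco, a scavenger receptor of macrophages, was at 3.07, 3.67 and 1.82 CPM in C57BL/6 and 0.0751, 0.124 and 0 CPM in BALB/c (log2 -5.39, SE 0.61, adjusted p 4.34e-05; -6.28 without BALB/c replicate 14 and -4.77 without replicate 15), while of 24 macrophage genes 5 were higher and 3 lower (20.8% higher and 12.5% lower, against 22.8% and 25.6% of all genes, median 0.14). Higher members numbered 3 without C57BL/6 replicate 1 or BALB/c replicate 15 or with total-count scaling. Lower members numbered 5 with total-count scaling. Tpsab1, the tryptase of mast cells, was at 0.468, 0.602 and 0.161 CPM in C57BL/6 and 3.38, 8.83 and 4.98 CPM in BALB/c (log2 3.81, SE 0.56, adjusted p 0.000249). Kit, the receptor that mast cells and melanocytes need, was lower (log2 -1.03, adjusted p 0.000307), whereas in mutants it was higher in BALB/c (0.45, adjusted p 0.0381).

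Osteoblast and bone matrix genes were called in both directions. Of the 30 osteoblast and bone matrix genes, 10 were higher, 3 lower and 17 did not pass, with a median of 0.26 (33.3% higher and 10% lower, against 22.8% and 25.6% of all genes). Higher members numbered 5 without BALB/c replicate 13 or with the Y-linked covariate, and 6 without BALB/c replicate 14. Lower members numbered 0 without BALB/c replicate 13, 1 without C57BL/6 replicate 2 or BALB/c replicate 14 or with GC and length offsets, centred or not, and 6 with total-count scaling. Bglap and Bglap2 encode osteocalcin, the late osteoblast protein of bone mineral. Bglap was at 164, 242 and 256 CPM in C57BL/6 and 547, 508 and 550.5 CPM in BALB/c (log2 1.28, SE 0.13, adjusted p 2.38e-05). Bglap2 was at 19.7, 28.2 and 35.9 CPM in C57BL/6 and 103, 102 and 126 CPM in BALB/c (log2 1.98, SE 0.18, adjusted p 1.02e-05). They share 56.6% and 88.2% of their words with other loci, so the split between them is uncertain. Spp1 (chromosome 5, 104435111 to 104441053), osteopontin of the mineralising matrix, was at 5254, 5615 and 7491 CPM in C57BL/6 and 9770.0, 9921 and 11886 CPM in BALB/c (log2 0.78, SE 0.12, adjusted p 0.000405), and all BALB/c samples lay above all C57BL/6 samples. Ank, which exports pyrophosphate and so restrains mineral, was at 364, 364 and 429 CPM in C57BL/6 and 504, 555 and 621 CPM in BALB/c (log2 0.54, SE 0.11, adjusted p 0.00189). Bambi, a decoy receptor for BMP and TGF-beta, differed (log2 0.81, SE 0.14, adjusted p 0.000788). Runx2 went the other way, at 304, 305 and 320.1 CPM in C57BL/6 and 229, 261 and 240.1 CPM in BALB/c (log2 -0.35, SE 0.10, adjusted p 0.0133); the call was lost without BALB/c replicate 13, and with centred GC and length offsets its difference was -0.11 (adjusted p 0.373).

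The type I collagen genes did not pass, except Col1a2 with GC and length offsets (log2 0.60, adjusted p 0.0149), also when centred (0.50, adjusted p 0.0306). Col1a1 was at 58981, 105057 and 103620.0 CPM in C57BL/6 and 107042, 100115 and 94826 CPM in BALB/c. Col1a2 was at 46281, 76749.5 and 81028 CPM in C57BL/6 and 88309, 81934 and 77019 CPM in BALB/c, with C57BL/6 replicate 1 lowest for both; their differences were 0.17 and 0.28 (adjusted p 0.435 and 0.187). Alpl, the alkaline phosphatase of mineralising cells, differed by -0.20 (SE 0.15, adjusted p 0.287), but passed without C57BL/6 replicate 1 (-0.38, adjusted p 0.00764), with total-count scaling (-0.30, adjusted p 0.0454) and with the motile cilia covariate (-1.13, adjusted p 0.0209). Sp7 differed by -0.03 (SE 0.12, adjusted p 0.86). Genes of collagen processing were called in both directions. Crtap, part of the prolyl 3-hydroxylase complex, was at 122, 156 and 165 CPM in C57BL/6 and 299, 273 and 302 CPM in BALB/c (log2 0.98, SE 0.11, adjusted p 3.58e-05), and Ppib, its cyclophilin partner, was higher by 0.59 (adjusted p 6.89e-05). Tmem38b, an endoplasmic reticulum ion channel whose loss gives brittle bones, was at 66.5, 38.2 and 29.5 CPM in C57BL/6 and 10.4, 10.9 and 9.37 CPM in BALB/c (log2 -2.13, SE 0.25, adjusted p 5.92e-05). In the whole list of 32 collagen genes 13 were higher and 4 lower (40.6% higher and 12.5% lower, against 22.8% and 25.6% of all genes). Lower members numbered 7 with total-count scaling. Col3a1, a collagen of loose connective tissue and one of the most abundant transcripts, was at 6721, 10224 and 10432 CPM in C57BL/6 and 13367, 12143 and 11615 CPM in BALB/c (log2 0.44, SE 0.15, adjusted p 0.0267), and the call was lost without BALB/c replicate 13 or BALB/c replicate 14, from the 6 wild type samples alone and with the Y-linked covariate.

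Of 13 osteocyte genes 6 were higher and 0 lower (46.2% higher and 0% lower, against 22.8% and 25.6% of all genes, median 0.24). Lower members numbered 1 without C57BL/6 replicate 2 or BALB/c replicate 13, with DESeq2, with total-count scaling, at 1 CPM or more or with halved counts, and 2 without C57BL/6 replicate 1. In mutants 2 members were higher in BALB/c (1 without C57BL/6 replicate 6 or BALB/c replicate 18) and 5 lower, against 18% higher and 18.9% lower over all genes in mutants. Sost (chromosome 11, 101962458 to 101967015), sclerostin, the Wnt inhibitor that osteocytes secrete, was at 45.4, 67.1 and 65 CPM in C57BL/6 and 151, 96.2 and 137 CPM in BALB/c (log2 1.11, SE 0.20, adjusted p 0.000967). Mepe, a matrix phosphoglycoprotein, was at 48.1, 56.4 and 57.3 CPM in C57BL/6 and 129, 105 and 92.5 CPM in BALB/c (log2 1.01, SE 0.11, adjusted p 2.76e-05). Dkk1, another Wnt inhibitor, was at 36.9, 54.7 and 37 CPM in C57BL/6 and 77.8, 69.2 and 57 CPM in BALB/c (log2 0.67, SE 0.15, adjusted p 0.00332). None of these groups overlapped. In mutants Sost and Mepe were higher in BALB/c by 0.79 and 0.37 (adjusted p 0.0091 and 0.0163).

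Suture mesenchyme and periosteum gave 16 higher and 5 lower of 31 (51.6% higher and 16.1% lower, against 22.8% and 25.6% of all genes, median 0.24). Lower members numbered 2 without C57BL/6 replicate 2 or any 1 of the BALB/c replicates, with no filter or with GC and length offsets, centred or not, and 3 without C57BL/6 replicate 3 or from the 6 wild type samples alone. Sfrp2 (chromosome 3, 83766321 to 83774314), a secreted Wnt modulator of suture mesenchyme, was at 144, 125 and 169.6 CPM in C57BL/6 and 505, 423 and 552 CPM in BALB/c (log2 1.76, SE 0.13, adjusted p 3.17e-06), and the difference in mutants was 1.46. Zic1, a transcription factor of the frontal midline, was at 7.17, 11.6 and 13.2 CPM in C57BL/6 and 34, 25.4 and 35.5 CPM in BALB/c (log2 1.57, SE 0.24, adjusted p 0.000347). Msx1, which keeps skull mesenchyme dividing, was at 8, 8.37 and 8.47 CPM in C57BL/6 and 18.4, 15.7 and 23.4 CPM in BALB/c (log2 1.21, SE 0.14, adjusted p 4.13e-05). Barx1, a homeobox gene on the same list, was lower, at 6.03, 4.28 and 3.22 CPM in C57BL/6 and 1.05, 1.05 and 1.35 CPM in BALB/c (log2 -1.97, SE 0.60, adjusted p 0.018); the call was lost without C57BL/6 replicate 1 or BALB/c replicate 13 or 14. Meninges genes gave 6 higher and 4 lower of 12 (50% higher and 33.3% lower, median 0.48). Lower members numbered 2 without BALB/c replicate 13 or 15. Foxd1, on that list, was at 4.78, 6.68 and 6.38 CPM in C57BL/6 and 19.8, 17.4 and 21.8 CPM in BALB/c (log2 1.73, SE 0.16, adjusted p 1.05e-05). Tendon and ligament genes were higher in 7 of 12 cases and lower in 0 (58.3% higher and 0% lower, median 0.50). Lower members numbered 1 without C57BL/6 replicate 1, with DESeq2, with total-count scaling or from the 6 wild type samples alone. Tnmd, tenomodulin, was at 25.7, 37.5 and 31.4 CPM in C57BL/6 and 72.1, 61 and 53 CPM in BALB/c (log2 0.98, SE 0.18, adjusted p 0.00105), and Scx, the transcription factor of tendon cells, differed (log2 0.68, SE 0.20, adjusted p 0.0148), or 0.32 with centred GC and length offsets (adjusted p 0.189).

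**Figure D2:**
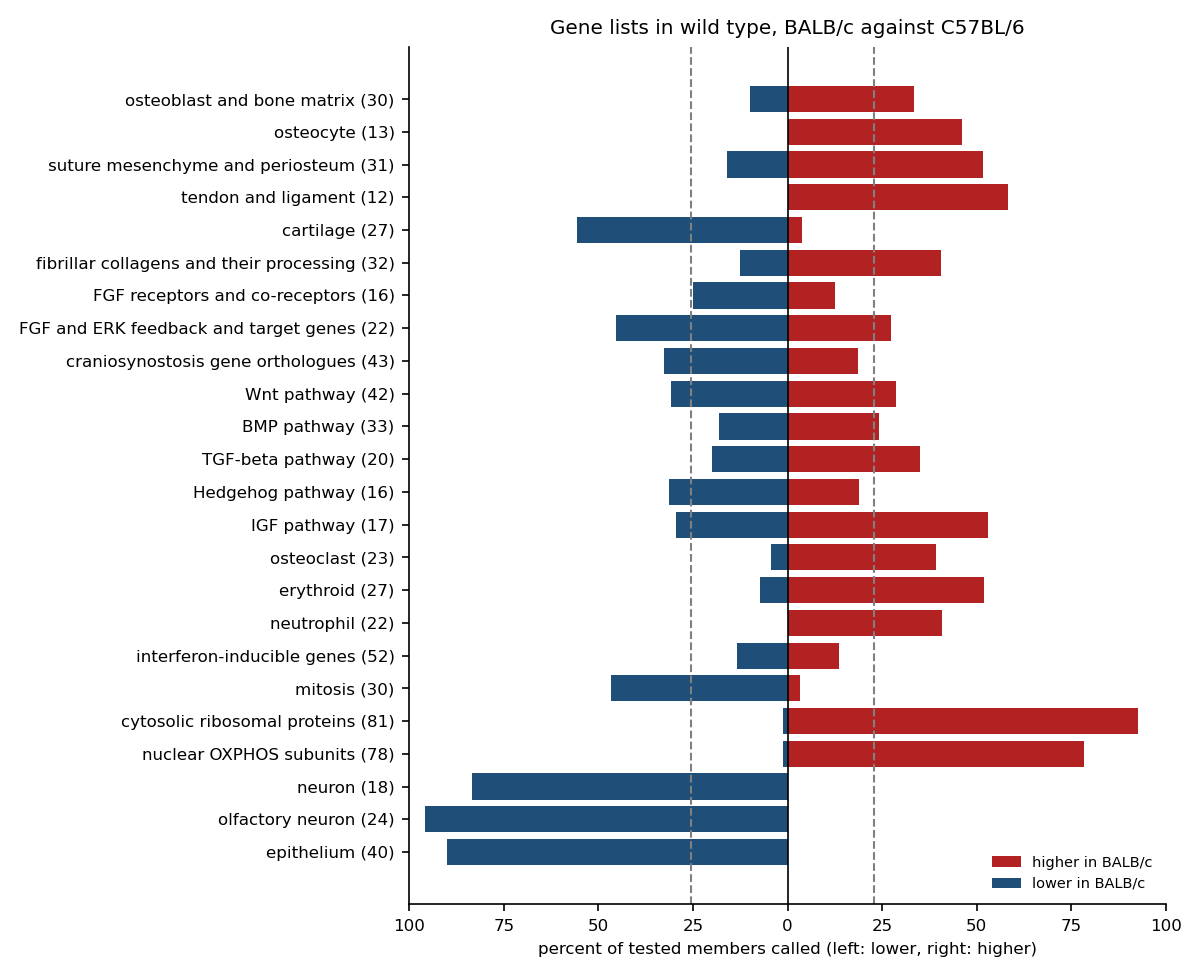
Percent of tested members of 24 gene lists called higher (right) and lower (left) in BALB/c wild type, with the number tested beside each name; dashed lines mark the shares over all 16190 genes, 22.8% higher and 25.6% lower. Ribosomal, OXPHOS, tendon and neutrophil lists extend to the right and nasal, neuronal and cartilage lists to the left.

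Fgfr2 (chromosome 7, 130162451 to 130266808), the receptor mutated in the other samples of the series, did not pass between the wild type strains: it was at 212, 252 and 283 CPM in C57BL/6 and 269, 287 and 290.2 CPM in BALB/c (log2 0.18, SE 0.10, adjusted p 0.153). It passed without C57BL/6 replicate 3 (0.28, adjusted p 0.0317) and with GC and length offsets (0.46, adjusted p 0.00479), also when centred (0.37, adjusted p 0.00969). Among FGF receptors and co-receptors 2 of 16 were higher and 4 lower (12.5% higher and 25% lower, against 22.8% and 25.6% of all genes). Higher members numbered 4 without C57BL/6 replicate 2 or 3, 5 with centred offsets, and 6 with GC and length offsets. Lower members numbered 2 without C57BL/6 replicate 3 or BALB/c replicate 13 or 14 or with GC and length offsets. Fgfr3 was at 185, 205 and 193 CPM in C57BL/6 and 142, 160.3 and 158 CPM in BALB/c (log2 -0.34, SE 0.09, adjusted p 0.00897). Gpc3, a glypican that binds growth factors at the cell surface, was at 131, 192 and 214 CPM in C57BL/6 and 290.1, 259.6 and 315 CPM in BALB/c (log2 0.69, SE 0.16, adjusted p 0.00371). Of 12 ligands 3 were higher in BALB/c and 1 lower (25% higher and 8.33% lower, median -0.29, while the summed level was higher in BALB/c with no overlap). Lower members numbered 0 at 1 CPM or more or with halved counts, and 2 without C57BL/6 replicate 2, with DESeq2, with limma-voom or from the 6 wild type samples alone. Fgf18, which drives osteoblast maturation in sutures, was at 2.08, 2.41 and 2.95 CPM in C57BL/6 and 5.26, 7.16 and 4.51 CPM in BALB/c (log2 1.19, SE 0.24, adjusted p 0.00212), Fgf7 was higher by 0.78 (adjusted p 0.00162) and Fgf1 by 0.77 (adjusted p 0.00019).

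Of 22 feedback and target genes of FGF and ERK signalling, 10 were lower and 6 higher in BALB/c (27.3% higher and 45.5% lower, against 22.8% and 25.6% of all genes, median -0.21). Higher members numbered 3 with total-count scaling. Lower members numbered 4 with GC and length offsets, and 6 with centred offsets. The summed level went the other way, at 5385, 5242 and 5931 CPM in C57BL/6 and 7596, 7654 and 8563 CPM in BALB/c, with no overlap. Cbl (chromosome 9, 44149262 to 44234046), the ubiquitin ligase that sends activated receptors to degradation, was at 11.3, 14 and 13.8 CPM in C57BL/6 and 1.58, 1.91 and 1.87 CPM in BALB/c (log2 -2.86, SE 0.29, adjusted p 2.24e-05). Il17rd (Sef), which inhibits FGF receptor signalling, was at 38, 29.3 and 27.6 CPM in C57BL/6 and 7.66, 14.3 and 9.25 CPM in BALB/c (log2 -1.60, SE 0.23, adjusted p 0.000212). Dusp4, an ERK phosphatase, was at 33.4, 21.7 and 25.1 CPM in C57BL/6 and 10.07, 14.5 and 10.13 CPM in BALB/c (log2 -1.21, SE 0.17, adjusted p 0.000187). Etv4, an FGF-induced transcription factor, was at 9.04, 8.49 and 7.45 CPM in C57BL/6 and 5.71, 3.71 and 3.57 CPM in BALB/c (log2 -0.95, SE 0.22, adjusted p 0.0042). The naming rule took these 4 genes and none of the 6 higher members. For each of the 4 all BALB/c samples lay below all C57BL/6 samples. In mutants Cbl, Il17rd and Dusp4 were also lower in BALB/c (log2 -1.72, -0.81 and -0.66), and Etv4 differed by -0.52 (adjusted p 0.0783).

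Of 43 mouse orthologues of craniosynostosis genes, 8 were higher and 14 lower in BALB/c (18.6% higher and 32.6% lower, against 22.8% and 25.6% of all genes, median -0.10). Higher members numbered 5 without BALB/c replicate 14, 13 with centred offsets, and 16 with GC and length offsets. Lower members numbered 9 with GC and length offsets. Il11ra1, the interleukin 11 receptor whose loss closes sutures early, was at 18.2, 19.1 and 17.3 CPM in C57BL/6 and 54.5, 43.9 and 48.7 CPM in BALB/c (log2 1.43, SE 0.082, adjusted p 4.46e-07), and the difference in mutants was 1.49. It shared 46.3% of its words with other loci. Ihh, the hedgehog ligand of prehypertrophic cartilage that also acts in skull bone, was at 16.3, 10.2 and 11.6 CPM in C57BL/6 and 4.36, 3.03 and 4.27 CPM in BALB/c (log2 -1.71, SE 0.23, adjusted p 0.000141). Tgfb2, a growth factor of sutures and dura, was at 181, 47.2 and 40.2 CPM in C57BL/6 and 32.8, 32.1 and 26.9 CPM in BALB/c (log2 -1.55, SE 0.44, adjusted p 0.0123); it was highest in C57BL/6 replicate 1, without which the difference was -0.51 (adjusted p 0.00481).

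Other signalling lists held genes called in each direction. In the Wnt list 12 of 42 were higher (28.6%) and 13 lower (31%), near the shares over all genes, 22.8% and 25.6%. Sfrp1 and Sfrp5, secreted inhibitors related to Sfrp2, were lower: Sfrp1 was at 86.4, 45.8 and 43.7 CPM in C57BL/6 and 12.8, 16.3 and 16.2 CPM in BALB/c (log2 -1.95, SE 0.37, adjusted p 0.00131). Sfrp5 was at 5.66, 4.82 and 3.43 CPM in C57BL/6 and 0.3, 0.432 and 0.176 CPM in BALB/c (log2 -3.93, SE 1.08, adjusted p 0.0107), or -3.21 (adjusted p 0.0796) with the Y-linked covariate. Both were also lower in C57BL/6 mutant replicates 5 and 6 than in the wild type, at 24.4, 7.71 and 10.9 CPM for Sfrp1 and 2.62, 0.0485 and 0.808 CPM for Sfrp5 in replicates 4, 5 and 6. In the BMP list 8 of 33 were higher and 6 lower (24.2% higher and 18.2% lower), near the shares over all genes, with a median of -0.10 and a summed level higher in BALB/c with no overlap. Lower members numbered 13 with total-count scaling. Bmpr2, the type II BMP receptor, was at 11.4, 12.8 and 12 CPM in C57BL/6 and 6.09, 6.3 and 5.33 CPM in BALB/c (log2 -1.03, SE 0.13, adjusted p 9.32e-05), with -1.05 in mutants, Bmpr1b, a type I receptor of cartilage, differed (log2 -2.59, SE 0.42, adjusted p 0.000515), and Nog, the antagonist noggin, was higher (log2 0.86, SE 0.20, adjusted p 0.00398). In the TGF-beta list 7 of 20 were higher and 4 lower (35% higher and 20% lower). Higher members numbered 11 with GC and length offsets. Lower members numbered 7 with total-count scaling. Ltbp2, a microfibril protein of the latent TGF-beta binding family, was at 83, 94.6 and 96.4 CPM in C57BL/6 and 210.4, 218 and 229.8 CPM in BALB/c (log2 1.26, SE 0.10, adjusted p 4.33e-06).

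Hedgehog genes gave 3 higher and 5 lower of 16, 18.8% and 31.2%, also near the shares over all genes, 22.8% and 25.6%. Lower members numbered 3 with GC and length offsets. Ptch1, the receptor and a standard readout of hedgehog activity, was at 65.4, 77.1 and 89.4 CPM in C57BL/6 and 19.8, 27 and 23.5 CPM in BALB/c (log2 -1.72, SE 0.15, adjusted p 7.78e-06), and Gli3, a transcription factor that acts mostly as repressor, differed (log2 -0.73, SE 0.079, adjusted p 3.5e-05). Gas1, a co-receptor, was higher by 0.55 (adjusted p 0.000193). Ptch1, Gli3 and Gas1 were called in the same direction in mutants. Of 17 insulin-like growth factor genes 9 were higher and 5 lower (52.9% higher and 29.4% lower). Lower members numbered 0 with GC and length offsets, 1 with centred offsets, and 3 without C57BL/6 replicate 1 or BALB/c replicate 13 or 15. Igfbp3 was at 119, 167 and 195 CPM in C57BL/6 and 433, 469 and 537 CPM in BALB/c (log2 1.58, SE 0.17, adjusted p 3.23e-05). Igfbp2 was at 41.3, 25.5 and 31.4 CPM in C57BL/6 and 113, 88.7 and 91.6 CPM in BALB/c (log2 1.58, SE 0.21, adjusted p 0.000132); both encode proteins that bind the growth factors outside the cell. The imprinted RNA H19 was at 2837, 3191 and 3361 CPM in C57BL/6 and 4204, 3919 and 5148 CPM in BALB/c (log2 0.50, SE 0.11, adjusted p 0.00264). Notch genes gave 4 higher and 6 lower of 20 (20% higher and 30% lower), near the shares over all genes. Higher members numbered 8 with GC and length offsets. In that list Hes1, a direct target, was higher by 0.61 (adjusted p 0.000131) and the ligand Jag2 was lower (log2 -0.84, adjusted p 0.00133).

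Cartilage genes were lower in BALB/c wild type: 15 of 27 were lower and 1 higher (3.7% higher and 55.6% lower, against 22.8% and 25.6% of all genes, median -1.72). Lower members numbered 9 without BALB/c replicate 13. Col10a1 (chromosome 10, 34389981 to 34397085), the collagen of hypertrophic cartilage, was at 378, 369 and 281 CPM in C57BL/6 and 6.91, 7.78 and 9.55 CPM in BALB/c (log2 -5.40, SE 0.85, adjusted p 0.000406); DESeq2 gave no adjusted p for it. Comp, a cartilage matrix protein, was at 134, 94.5 and 93.9 CPM in C57BL/6 and 4.43, 11.4 and 14.1 CPM in BALB/c (log2 -3.41, SE 0.60, adjusted p 0.00087). C57BL/6 mutants did not share the high level: Col10a1 was at 92.3, 10.5 and 6.3 CPM and Comp at 54, 11 and 16.4 CPM in replicates 4, 5 and 6. The list's summed level was 12554 to 14345 CPM in C57BL/6 wild type and 6056 to 7191 CPM in BALB/c wild type. In mutants 3 members were lower and 2 higher in BALB/c (median 0.28), against 18% higher and 18.9% lower over all genes in mutants, but 15 were higher without C57BL/6 mutant replicate 4. How much cartilage was dissected is not in the labels, and its part in the result was not tested.

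Lists of nasal lining and nerve were mostly lower in BALB/c. Olfactory neuron genes were lower in 23 of 24 (95.8%, median -7.03), epithelial genes in 36 of 40 (90%, -5.29) and motile cilia genes in 26 of 34 (76.5%, -2.92). Gland and secretory genes were lower in 12 of 15 (80%, -6.16), detoxifying enzymes in 13 of 21 (61.9%, -5.17) and neuronal genes in 15 of 18 (83.3%, -4.12). Over all genes 25.6% were lower and 22.8% higher. The gland and detoxifying lists each had 1 member higher, and the others 0. The lower members passed the filter through the group where they were high, so these counts describe the libraries and support nothing further. Rtp1, which brings odorant receptors to the cell surface, was at 39.5, 20.8 and 22.8 CPM in C57BL/6 and at 0 in each BALB/c wild type library, at least 246-fold lower (adjusted p 0.0131), and it was at 13.8, 0 and 0.0539 CPM in the C57BL/6 mutants. The 10 genes with the largest decreases that were on none of these lists had the same shape: Nhlh1, Atp6v1b1, Fezf1, Otx2, Insm1, Aqp4, Neurod1, Sp8, Pitx1 and Olfr536 were at 0 in all 3 BALB/c wild type libraries. Nhlh1, a neuronal transcription factor, was at 27.6, 12.4 and 13.7 CPM in C57BL/6 wild type and 8.68, 0.0485 and 0.108 CPM in C57BL/6 mutants. Of the genes lower by at least 1 in BALB/c wild type, 1398 (76.6%) had C57BL/6 mutant replicates 5 and 6 below the lowest C57BL/6 wild type sample. These genes were picked for being higher in C57BL/6 wild type, which favours such a position, and the share over all genes was not counted. Basal keratins were highest in C57BL/6 replicate 2: Krt5 was at 9.4, 81.6 and 4.45 CPM in C57BL/6 and Krt14 at 2.81, 24.6 and 1.29 CPM, and without that library the fitted differences were -8.10 and -9.26, in place of -10.32 and -11.47. Krt5 was at -13.24 without BALB/c replicate 13, the one with a count, and at -9.72 without replicate 15, and limma-voom called neither gene (adjusted p 0.28 for Krt5 and 0.103 for Krt14).

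**Figure D3:**
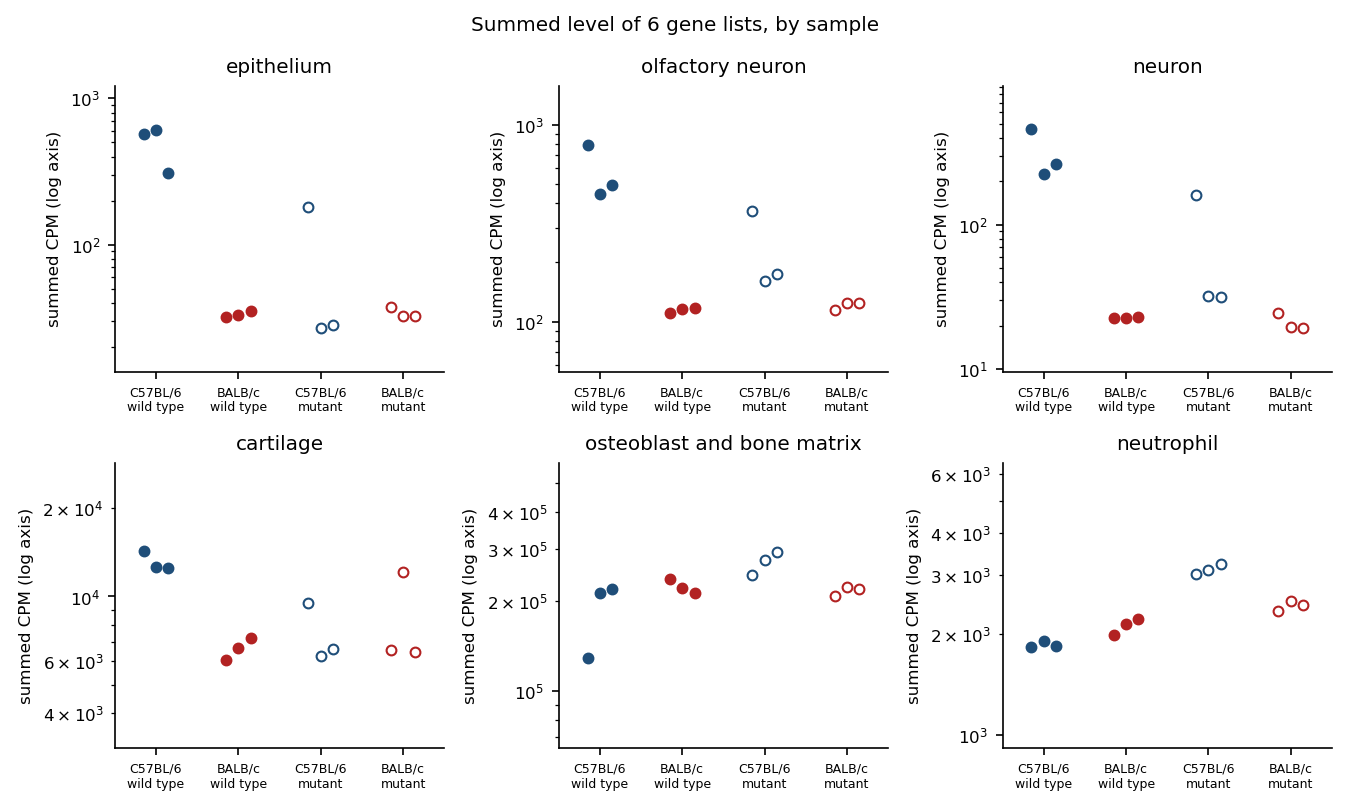
Summed CPM of 6 gene lists in each of the 12 samples on a log axis; filled points are wild type and open points mutant samples. For epithelium, olfactory neuron and neuron lists the 3 C57BL/6 wild type samples lie highest and C57BL/6 mutant replicates 5 and 6 lie near the BALB/c samples, while C57BL/6 wild type replicate 1 lies lowest for the osteoblast list and 1 BALB/c mutant, at 12141 CPM, lies near the C57BL/6 wild type for cartilage. In mutants the neutrophil sum is higher in C57BL/6 (3026 to 3243 CPM) than in BALB/c (2339.7 to 2509 CPM), the opposite sign to its members' median.

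Of the neutrophil, erythroid and B cell lists more members were called higher than lower in BALB/c. Megakaryocyte genes gave 2 higher and 2 lower of 15 (13.3% higher and 13.3% lower, against 22.8% and 25.6% of all genes, median -0.09), mast cell, eosinophil and basophil genes 1 and 2 of 12 (8.33% higher and 16.7% lower), and T and NK cell genes 1 and 1 of 9 (11.1% higher and 11.1% lower). The lower megakaryocyte count was 1 without C57BL/6 replicate 1, with the Y-linked covariate or with GC and length offsets. The higher mast cell count was 2 without C57BL/6 replicate 2, from the 6 wild type samples alone or with the Y-linked covariate. The lower T and NK cell count was 0 without C57BL/6 replicate 2 or BALB/c replicate 15, at 1 CPM or more or with the Y-linked covariate, and 3 with no filter. Of 22 neutrophil genes 9 were higher and 0 lower (40.9% higher and 0% lower, median 0.68); Camp, an antimicrobial granule protein, was at 23.5, 9.64 and 17.9 CPM in C57BL/6 and 46.8, 40.1 and 42.3 CPM in BALB/c (log2 1.34, SE 0.28, adjusted p 0.00219). S100a9, of the calprotectin pair, was at 109.7, 68.8 and 72.9 CPM in C57BL/6 and 199.5, 182 and 229 CPM in BALB/c (log2 1.28, SE 0.23, adjusted p 0.000876). Of 27 erythroid genes 14 were higher and 2 lower (51.9% higher and 7.41% lower, median 0.39). Higher members numbered 8 without C57BL/6 replicate 2 or BALB/c replicate 13 or with total-count scaling, and 9 with the Y-linked covariate. Lower members numbered 0 without C57BL/6 replicate 1 or BALB/c replicate 13 or 14, and 1 without C57BL/6 replicate 3, with the Y-linked covariate or with GC and length offsets, centred or not. The summed level of the erythroid list overlapped, at 779, 628 and 766 CPM in C57BL/6 and 885, 835 and 757 CPM in BALB/c. Epor, the erythropoietin receptor, was at 6.7, 5.18 and 5.15 CPM in C57BL/6 and 11.1, 10.6 and 11.9 CPM in BALB/c (log2 0.98, SE 0.16, adjusted p 0.000593). Of 19 B cell genes 8 were higher and 2 lower (42.1% higher and 10.5% lower, median 0.98), although the summed level of the list overlapped, at 145, 101.4 and 98.5 CPM in C57BL/6 and 102, 111 and 93.1 CPM in BALB/c. Igll1, of the surrogate light chain of early B cells, was at 1.97, 1.26 and 1.13 CPM in C57BL/6 and 4.06, 3.46 and 3.81 CPM in BALB/c (log2 1.37, SE 0.25, adjusted p 0.000926). Ebf1, a B cell factor that mesenchyme also expresses, was at 37, 32.5 and 31.6 CPM in C57BL/6 and 12.9, 15.8 and 11 CPM in BALB/c (log2 -1.35, SE 0.13, adjusted p 1.79e-05). In mutants 20, 25 and 15 members of the neutrophil, erythroid and B cell lists were higher in BALB/c, with medians of 2.02, 2.34 and 2.45, and 1, 0 and 2 were lower, against 18% higher and 18.9% lower over all genes in mutants. The strain difference differed between the genotypes for 8, 20 and 10 members of these lists, against 10% of all genes. Without 1 sample these 3 counts ran from 4 to 13, from 19 to 20 and from 4 to 12, while that over all genes ran from 624 to 3129.

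Of 23 osteoclast genes 9 were higher in BALB/c and 1 lower (39.1% higher and 4.35% lower, against 22.8% and 25.6% of all genes, median 0.17). Lower members numbered 2 without BALB/c replicate 15, with the Y-linked covariate or with centred offsets, 3 without C57BL/6 replicate 1, and 4 with total-count scaling. Ctsk, the collagen-cleaving cathepsin K, was at 1174, 1448 and 1485 CPM in C57BL/6 and 1879, 2223 and 1986 CPM in BALB/c (log2 0.57, SE 0.10, adjusted p 0.000864). Dcstamp, needed for osteoclast fusion, was at 17.3, 18.2 and 20.0 CPM in C57BL/6 and 26.3, 25.6 and 25.6 CPM in BALB/c (log2 0.48, SE 0.067, adjusted p 0.000178). Oscar, a co-stimulatory receptor, was lower, at 20.6, 20.9 and 20.2 CPM in C57BL/6 and 11.7, 16.4 and 15 CPM in BALB/c (log2 -0.51, SE 0.11, adjusted p 0.00288). In mutants 17 members were lower in BALB/c and 1 was higher (median -0.42), against 18% higher and 18.9% lower over all genes in mutants. For 18 of 23 the strain difference itself differed between the genotypes, against 10% of all genes (624 to 3129 genes without 1 sample); the list count ran from 13 to 19 without 1 sample and was 11 with total-count scaling. Among endothelial genes 7 of 23 were higher and 1 lower (30.4% higher and 4.35% lower). Higher members numbered 13 with GC and length offsets. Lower members numbered 0 without C57BL/6 replicate 3 or BALB/c replicate 15 or with GC and length offsets, centred or not, and 3 with total-count scaling. Sox18, a transcription factor of vessels, was at 11, 13.4 and 11.5 CPM in C57BL/6 and 29.7, 27.5 and 22.1 CPM in BALB/c (log2 1.14, SE 0.11, adjusted p 1.49e-05). Smooth muscle and pericyte genes gave 1 higher and 4 lower of 16 (6.25% higher and 25% lower, median -0.29). Higher members numbered 2 with centred offsets, and 3 with GC and length offsets. Lower members numbered 1 with GC and length offsets, 2 without C57BL/6 replicate 2 or BALB/c replicate 13 or 15 or with centred offsets, and 7 from the 6 wild type samples alone. Rgs5, a pericyte gene, was at 45.3, 48.5 and 46.3 CPM in C57BL/6 and 25.1, 24.4 and 18.3 CPM in BALB/c (log2 -1.05, SE 0.13, adjusted p 9.23e-05). Adipocyte genes gave 1 higher and 3 lower of 14 (7.14% higher and 21.4% lower, median -0.02). Higher members numbered 2 from the 6 wild type samples alone or with the Y-linked covariate. Lower members numbered 5 without BALB/c replicate 14. The higher one was Fabp4, a fatty acid carrier of fat and capillary cells, at 43.9, 47 and 47 CPM in C57BL/6 and 99.2, 88.2 and 76.1 CPM in BALB/c (log2 0.93, SE 0.093, adjusted p 2.03e-05).

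Genes of protein synthesis and respiration were higher in BALB/c by small amounts. Of 81 cytosolic ribosomal protein genes 75 were higher and 1 lower (92.6% higher and 1.23% lower, against 22.8% and 25.6% of all genes, median 0.41), and of 78 nuclear genes of oxidative phosphorylation 61 and 1 (78.2% higher and 1.28% lower, median 0.31). Their median lengths were 684 and 680.0 bases, and gene length moved with the strain difference over all genes: in the shortest of 5 equal classes 37.9% were higher and 12% lower, whereas in the longest class they were 7.3% and 51.3%. The median difference ran from 0.23 in the shortest to -0.28 in the longest class, and from 0.16 to -0.22 in mutants. Across 16190 genes, which share these libraries and are not independent, the Spearman correlation of length and strain difference was -0.319. With centred GC and length offsets 41 ribosomal genes were higher and 6 lower (median 0.18) and 24 OXPHOS genes higher and 5 lower (median 0.07), with the offsets not centred 46 ribosomal and 35 OXPHOS genes were higher, and with total-count scaling 36 OXPHOS genes were.

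A few of these genes differed far more than the rest. Rpl22l1, a ribosomal protein paralogue, was at 7.9, 8.55 and 9.22 CPM in C57BL/6 and 58.7, 59.7 and 61 CPM in BALB/c (log2 2.80, SE 0.073, adjusted p 4.53e-10). Rps23 was at 7.79, 6.62 and 6.59 CPM in C57BL/6 and 48, 48.2 and 53.5 CPM in BALB/c (log2 2.83, SE 0.087, adjusted p 1.88e-09). Rplp2 was at 32.2, 32.2 and 31.4 CPM in C57BL/6 and 188, 173 and 220.1 CPM in BALB/c (log2 2.60, SE 0.089, adjusted p 3.69e-09). Rpl31 was at 35.9, 37.6 and 41.7 CPM in C57BL/6 and 207, 176 and 199.7 CPM in BALB/c (log2 2.34, SE 0.086, adjusted p 5.97e-09). Glycolysis genes gave 7 higher and 5 lower of 23 (30.4% higher and 21.7% lower, against 22.8% and 25.6% of all genes, median 0.15). Lower members numbered 3 with GC and length offsets. Gapdh, a glycolytic enzyme gene, was at 14.6, 14.3 and 15.4 CPM in C57BL/6 and 72.7, 70.8 and 82.5 CPM in BALB/c (log2 2.35, SE 0.079, adjusted p 3.37e-09) and Eno1, another glycolytic enzyme gene, was at 3.84, 2.47 and 2.95 CPM in C57BL/6 and 9.92, 9.51 and 9.66 CPM in BALB/c (log2 1.65, SE 0.19, adjusted p 4.36e-05). Morf4l1, a chromatin protein named after its values were seen, was at 7.27, 7.41 and 6.27 CPM in C57BL/6 and 54.9, 56.3 and 59.5 CPM in BALB/c. In mutants Gapdh was at 11.9, 13.4 and 12.6 CPM in C57BL/6 and 69.97, 64.7 and 74.3 CPM in BALB/c. These genes share sequence with other loci: Rpl22l1, Rps23, Rplp2, Rpl31, Gapdh, Eno1 and Morf4l1 shared 12.8%, 37.6%, 13.9%, 18.7%, 24.7%, 26% and 9.93% of their 50-base words with other loci, so reads may have been split or dropped and the values are uncertain. Lars2 and Eef1a1, the mitochondrial leucyl-tRNA synthetase and a translation elongation factor, were among the most abundant transcripts and went opposite ways, with Lars2 at 15705, 14771 and 14282 CPM in C57BL/6 and 10618, 10299.6 and 8420.4 CPM in BALB/c (log2 -0.61, SE 0.11, adjusted p 0.00107). Eef1a1 was at 3657, 3752 and 4265 CPM in C57BL/6 and 6179, 6085 and 6530.0 CPM in BALB/c (log2 0.69, SE 0.078, adjusted p 4.65e-05) and shared 38.6% of its words with other loci. Over all genes with 25 to 50% of shared words 44.8% were higher and 9.6% lower, against 21.2% and 26.8% of those under 1%. At 50% and over the shares were 36.5% and 17.3%. Across 14613 genes the Spearman correlation of shared words and strain difference was 0.015. Gene counts made up 75.6% to 79.5% of the authors' library total in C57BL/6 and 87.3% to 87.9% in BALB/c wild type. The part of read handling in these differences was not tested.

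**Figure D4:**
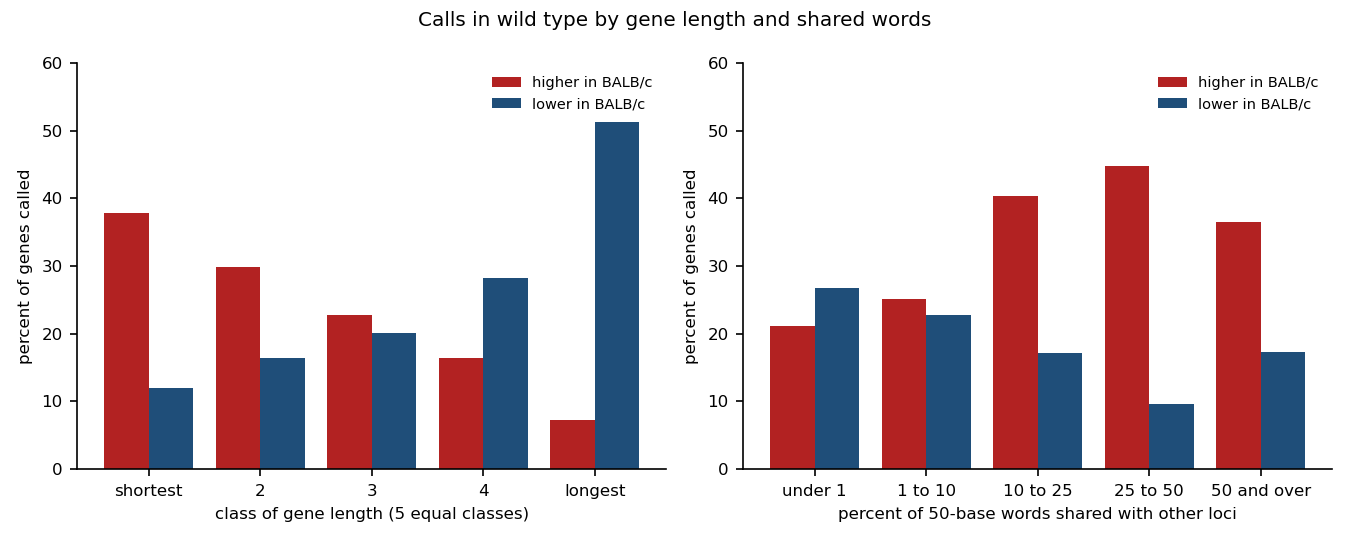
Percent of genes called in each direction, BALB/c against C57BL/6 wild type, by class of gene length (5 equal classes) (left) and by percent of 50-base words shared with other loci (right). The share called lower rises from 12% in the shortest to 51.3% in the longest class, and 44.8% of genes with 25 to 50% of shared words are higher, against 21.2% of those under 1% and 36.5% of those at 50% and over.

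Immediate early and stress genes were higher in 19 of 35 cases and lower in 4 (54.3% higher and 11.4% lower, against 22.8% and 25.6% of all genes, median 0.39). Jund, an AP-1 subunit, was at 248, 239 and 251 CPM in C57BL/6 and 605, 652 and 710.2 CPM in BALB/c (log2 1.41, SE 0.067, adjusted p 7.13e-08). Klf2, a transcription factor induced by flow and stress, was at 134, 131 and 141 CPM in C57BL/6 and 324, 341 and 413 CPM in BALB/c (log2 1.41, SE 0.087, adjusted p 7.18e-07). Hspa1a, a heat shock gene, was lower in BALB/c, at 107, 138 and 172 CPM in C57BL/6 and 32.2, 34.5 and 45.2 CPM in BALB/c (log2 -1.90, SE 0.27, adjusted p 0.000192), as was its near-copy Hspa1b, at 102, 113 and 146 CPM in C57BL/6 and 30.4, 28.2 and 38.9 CPM in BALB/c (log2 -1.89, SE 0.29, adjusted p 0.000358). They share 60.4% and 62.3% of their words, so the split between the pair is uncertain while both have the same direction. Mitosis genes were lower in 14 of 30 and higher in 1 (3.33% higher and 46.7% lower, median -0.21), but with GC and length offsets 3 were lower. The higher mitosis count was 0 without C57BL/6 replicate 2 or 3 or BALB/c replicate 13 or 15. It was also 0 with DESeq2, with total-count scaling and with the Y-linked covariate. Kif11, a spindle motor, was at 58, 49.98 and 49.2 CPM in C57BL/6 and 35.5, 33.9 and 26.9 CPM in BALB/c (log2 -0.71, SE 0.12, adjusted p 0.000739). In mutants 26 of the same 30 were higher in BALB/c and 0 lower (median 0.68), against 18% higher and 18.9% lower over all genes in mutants. For 27 of the 30 the strain difference differed between the genotypes (24 to 29 without 1 sample). DNA replication genes had 5 higher and 5 lower of 30 in wild type (16.7% higher and 16.7% lower, against 22.8% and 25.6% of all genes). Both counts ran from 2 to 5 over the fits without 1 sample, with 0 lower with GC and length offsets. Over all genes the strain difference differed between wild type and mutant samples for 1626 (10%). Without C57BL/6 mutant replicate 4 this count was 3129, without 1 of the other samples it ran from 624 (C57BL/6 mutant replicate 6) to 1862, and DESeq2 gave 2690.

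**Figure D5:**
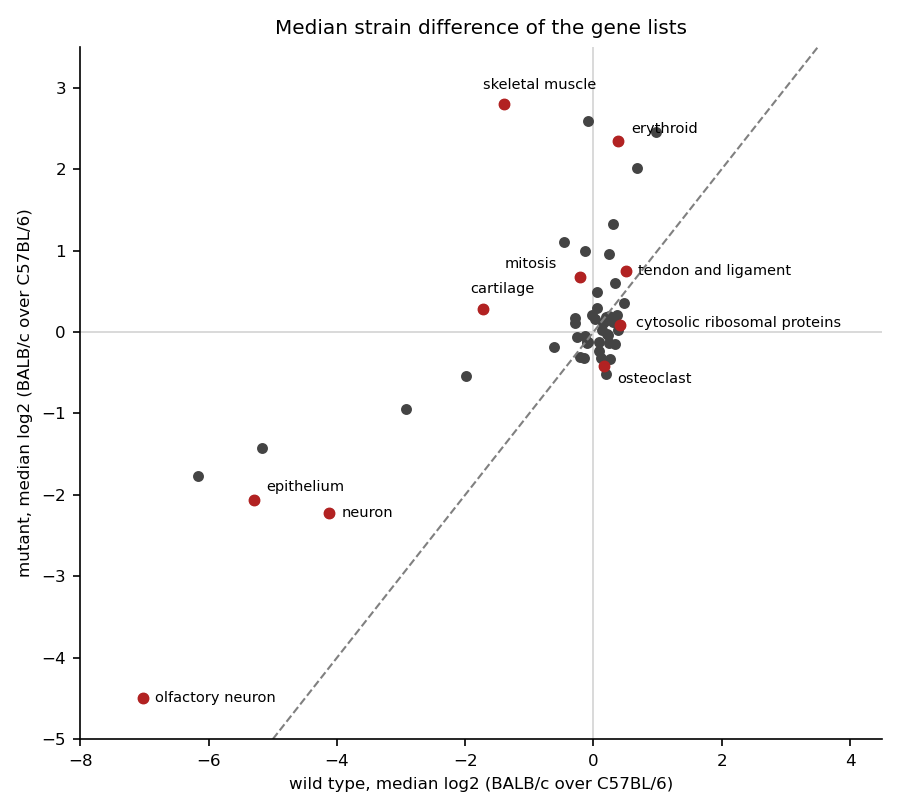
Median strain difference (log2, BALB/c minus C57BL/6) of the 54 gene lists in wild type (horizontal) and mutant samples (vertical); the 2 axes share no samples, and the line marks equal values. Tendon lies at 0.50 and 0.75, near the line, erythroid at 0.39 and 2.34, above it, and osteoclast at 0.17 and -0.42, below it.

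The authors' deposited table of this comparison listed 7899 genes with a q-value under 0.05. Of the 15965 genes present in both analyses, 6729 passed in both, which is 88.3% of the authors' and 87.4% of the calls made here, and 6715 of them had the same direction.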

How the data were processed

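Gene-level RNA-seq counts of 12 frontal bone samples in 4 groups of 3 were used, 6 of them wild type. Per the submitters' processing notes the tools were bcl2fastq, TopHat2 2.0.6, HTSeq and DESeq2, with the genome build mm10; their roles and order are not given there. The deposited counts are whole numbers, all even, so 1 read pair may stand as 2 counts. RPKM values deposited beside them were used only to find the authors' library totals. The authors' deposited table gives log2 changes with p-values, and q-values, and these come from their own comparison of the groups. Gene length in bases, the column of another kind, is given per the file headers.

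Counts were tested with edgeR 4.0.16 in R 4.3.3 (quasi-likelihood F test, TMM scaling, filterByExpr with its minimum count of 10) over all 12 samples with 1 term a group, and p-values were adjusted by Benjamini-Hochberg over all genes tested, with a threshold of 0.05. The contrasts were the strain difference in wild type, in mutants, and the difference of both. A floor of 3 counts gave bounds for genes at 0, and floors cover counting error only. SE values come from the quasi-likelihood fit, which includes the spread between samples. The share of 50-base words that a gene's transcripts hold in common with other loci was counted in the reference. The script was tested on simulated data.

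Named genes were Fgfr2, the 10 largest changes in each direction among genes called with a mean of at least 1 CPM and no overlap, off the nasal, epithelial and sex-linked lists, the 5 in each direction also called in mutants, up to 4 called members of each list, the 6 most abundant called genes, and genes that check tissue and sex. The members and lists were chosen with earlier results of these data known. Alternatives were DESeq2 1.42.0, limma-voom (limma 3.58.1), other scalings, filters, samples, covariates and offsets. Halved counts, centred offsets and list counts without each wild type replicate were chosen after seeing the data. Promoter and miRNA sequences are from RefSeq.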

Additional observations from a re-analysis of the deposited data

Results flagged for a closer look

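The strain difference was not the same in wild type and mutant samples for 1626 genes, by a test of the difference itself in the 12-sample fit (edgeR, adjusted p under 0.05). The values here are the wild type strain difference minus the mutant one, on the log2 scale, for genes named above. Positive values were 1.16 for Spp1, 1.12 for Ank, 0.65 for Mepe, 0.63 for Bglap and 0.56 for Crtap. In mutants the strain difference of Spp1 was -0.38 and that of Ank -0.58. The osteoclast genes Dcstamp, Ctsk and Oscar had values of 1.14, 0.96 and 0.79. In mutants Dcstamp differed by -0.66 and Ctsk by -0.39, the opposite sign to wild type.

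Negative values were found for Igll1 (-2.01), Camp (-1.54), Kit (-1.47), Epor (-1.23), H2-T24 (-1.20), Cmpk2 (-1.18), Oas3 (-1.17) and Ebf1 (-0.77). Without C57BL/6 mutant replicate 6 such calls fell from 2 to 0 in the class I list, which holds H2-T24. In the interferon-inducible list they fell from 7 to 1 without that sample. Among signalling genes Bmpr1b was at -2.62, Sstr1 at -2.27, Sfrp1 at -2.01, Ihh at -1.64 and Jag2 at -0.83, while Fgf1 was at 0.65 and Hes1 at 0.56. Calls among FGF ligands, Fgf1 included, fell from 2 to 0 without C57BL/6 mutant replicate 6. Those in the Notch list fell from 4 to 1 without C57BL/6 wild type replicate 1. Tmem38b, the ion channel gene, was at -1.32 and the mitotic motor Kif11 at -0.78. Small positive values were found for Jund (0.52), Morf4l1 (0.50), Rpl22l1 (0.48), Rpl31 (0.48), Scand1 (0.48) and Klf2 (0.47). Total-count scaling moved the median of this value over all genes from -0.0074 to -0.2382. With it 0 cytosolic ribosomal genes were called in place of 22, and 1 immediate early or stress gene in place of 5. Without C57BL/6 mutant replicate 6 the ribosomal count was 2.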

How the results depend on the processing

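No paired analysis was possible because the groups share no replicate numbers. The wild type count of 7847 genes ran from 6567 to 7319 without 1 wild type replicate. It was 7813 with DESeq2, 7815 with limma-voom, 7733 with RLE factors, 7814 with no filter, 7316 at 1 CPM or more, 7259 from the 6 wild type samples alone, 6879 with the Y-linked covariate, 6810 with centred offsets and 7616 with halved counts. It fell to 579 with the motile cilia and 854 with the epithelium covariate, of whose variance strain sets 92.9% and 97.7% in wild type. The genes higher numbered 2221 with total counts, 211 with the cilia and 333 with the epithelium covariate, and those lower 368 and 521 with these covariates and 2737 with GC and length offsets. Without 1 wild type replicate they ran from 3034 to 3404 higher and from 3533 to 3915 lower. The mutant count ran from 4500 to 5374 without 1 mutant replicate, and total-count scaling gave 4039 higher and 1915 lower genes in mutants. The 1626 genes whose strain difference differed between genotypes became 2690 with DESeq2, 1847 with total-count scaling, 10 and 74 with the covariates, and 3007 with GC and length offsets. Without 1 sample they ran from 624 to 3129 (3129 without C57BL/6 mutant replicate 4). Of the 1626, 742 were positive and 884 negative, against 175 and 1672 with total-count scaling and 2207 and 800 with GC and length offsets. Of 121 named genes called, 113 were called in the same direction in every setting but the cilia and epithelium covariates (DESeq2 gave no adjusted p for Col10a1), with which 32 and 42 were. Signs turned with the cilia covariate for Barx1 (1.49), Col1a1 (-0.81), Col1a2 (-0.58), Col3a1 (-0.32), Etv4 (0.038), Fgfr2 (-0.29), Gpc3 (-0.27), Jag2 (0.13), Nog (-0.13), Sfrp1 (0.66), Sost (-0.17) and Tgfb2 (1.15), and with the epithelium covariate for Barx1 (1.38), Col1a1 (-0.22), Col1a2 (-0.095), Fgfr2 (-0.10), Krt14 (0.62) and Krt5 (4.46). Col1a1 ran from -0.047 (without C57BL/6 replicate 1) to 0.31 without 1 replicate, and Sp7 was at 0.045, 0.056 and 0.019 without C57BL/6 replicates 2 and 3 and BALB/c replicate 15. The cause of these changes was not tested. Depth limits genes near the floor, which stood at 0.0779 to 0.113 CPM in wild type libraries.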
